A study of Homo sapiens with 14 samples.

Results

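The comparison is between cartilage pellets grown for 45 days and for 30 days from one human embryonic stem cell line. Its members are the 5 libraries titled as day 45 and the 5 titled as day 30, which make up 10 of the 14 libraries of the series; the other 4 were made at day 21. All 3 groups come from the WA01 (H1) line, an established line, kept in chondrogenic medium, and no other agent, genotype or sorting step is named in the labels. Extracted RNA was sequenced after TruSeq RNA v2 preparation. The values are estimated read counts per gene over a table of 60587 genes. Day 45 replicate 1 was placed at day 45 by its title although its treatment label reads 30 days, so results are also given without it. The labels call the replicates separate samples of a group but do not say whether each came from its own culture, so p-values cover the spread among these libraries, which may be technical. Values of single libraries are listed in the order of replicates 1 to 5.

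Cartilage is built by chondrocytes, which secrete a network of type II, IX and XI collagen fibrils filled with the proteoglycan aggrecan. In a growth plate these cells divide, then enlarge into hypertrophic chondrocytes that secrete type X collagen and the signal Indian hedgehog, and the matrix is then mineralised. In joint cartilage most chondrocytes stop short of that step, and pellet cultures of stem cells are used to study how far along either route cells go. Such a pellet is a mixture: in these bulk samples fewer cells of a type and less RNA per cell cannot be told apart.

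Levels are given as CPM, the count of a gene scaled to library size by TMM. Libraries held 18183785 to 28355236 counts at day 30 and 27627877 to 33660676 at day 45. Replicates of a day differed by more than counting noise in every pair (chi-square divided by its degrees of freedom, 12.77 to 172.87). The first principal component of the 500 most variable genes carried 67.5% of their variance and separated the days. Day 30 replicates 3 to 5 stood apart from day 30 replicates 1 and 2: each library's deviation from the mean log2 CPM correlated with gene length at a Spearman rho of -0.43, -0.52 and -0.47, against -0.01 and -0.07, and against 0.12 to 0.19 at day 45 (across genes, as a description). The mitochondrial pseudogene MTCO1P12 was at 7009, 12000 and 13650 CPM in those 3 libraries, at 3571 and 5577 CPM in day 30 replicates 1 and 2, and at 2773 to 5613 CPM at day 45. Counts of gene lists are therefore also given from a fit with day 30 replicates 1 and 2 as the only day 30 libraries (the reduced fit), higher before lower, and the plot of change by gene length shows both fits beside one with an offset for gene length in each library.

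**Figure D1:**
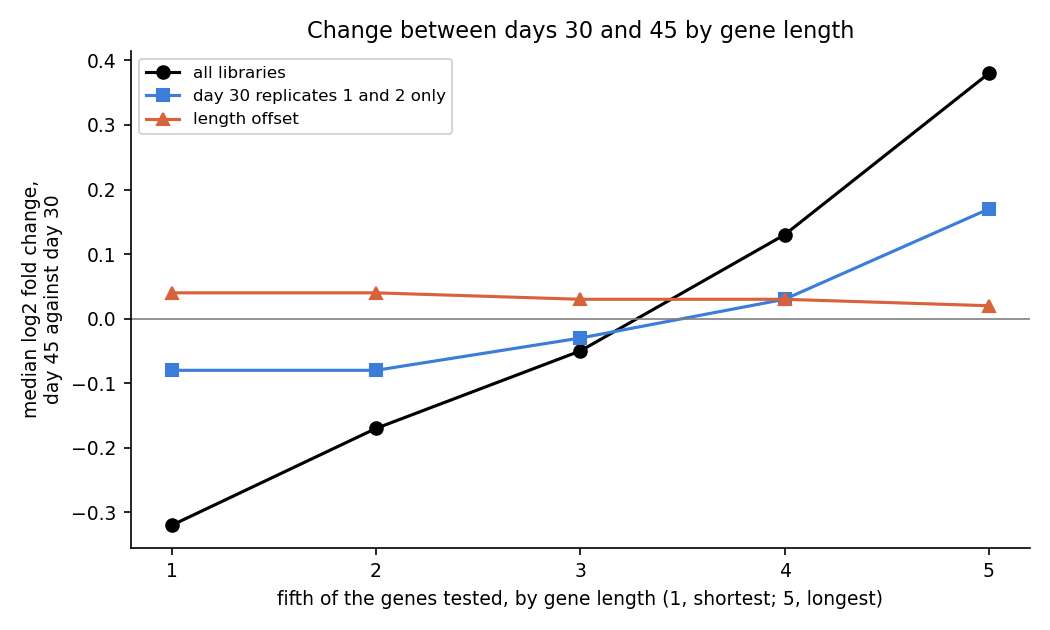
Median log2 fold change (y axis) of the genes tested in 5 groups of equal size by gene length (x axis, 1 the shortest), day 45 against day 30, under 3 fits. With all libraries the medians climb from -0.32 to 0.38, with day 30 replicates 1 and 2 only from -0.08 to 0.17, and with a length offset per library they lie between 0.02 and 0.04. The offset takes out the length trend of each library, so the flat medians of that fit are set by its design.

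Most expressed genes differed between the days. Of 17838 genes tested, 10051 (56.3%) had an adjusted p below 0.05 (edgeR's quasi-likelihood test, Benjamini-Hochberg adjustment), 4930 of them higher at day 45 (27.6%) and 5121 lower (28.7%). A change of over 2-fold was found for 1152 higher (6.46%) and 2430 lower genes (13.6%). Libraries of the days did not overlap for 3528 genes higher at day 45 (19.8%) and 3311 lower ones (18.6%). With day 30 replicates 1 and 2 only, 3628 genes were called higher (19.6%) and 3564 lower (19.3%). Without day 45 replicate 1 they were 4718 (26.5%) and 4795 (27.0%), and with the length offset 5207 (29.2%) and 4606 (25.8%). With day 45 replicate 1 placed at day 30, as its treatment label reads, 6466 genes were called in either direction. COL10A1 and CHI3L2, described below, were not among them (edgeR, adjusted p = 0.334 and 0.294). The level of both genes in that library was above that of every other library of days 30 and 45. The median log2 fold change of all genes was -0.04, and lists are read against that value and those shares. Their counts are drawn beside these shares in the plot of called members by list.

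**Figure D2:**
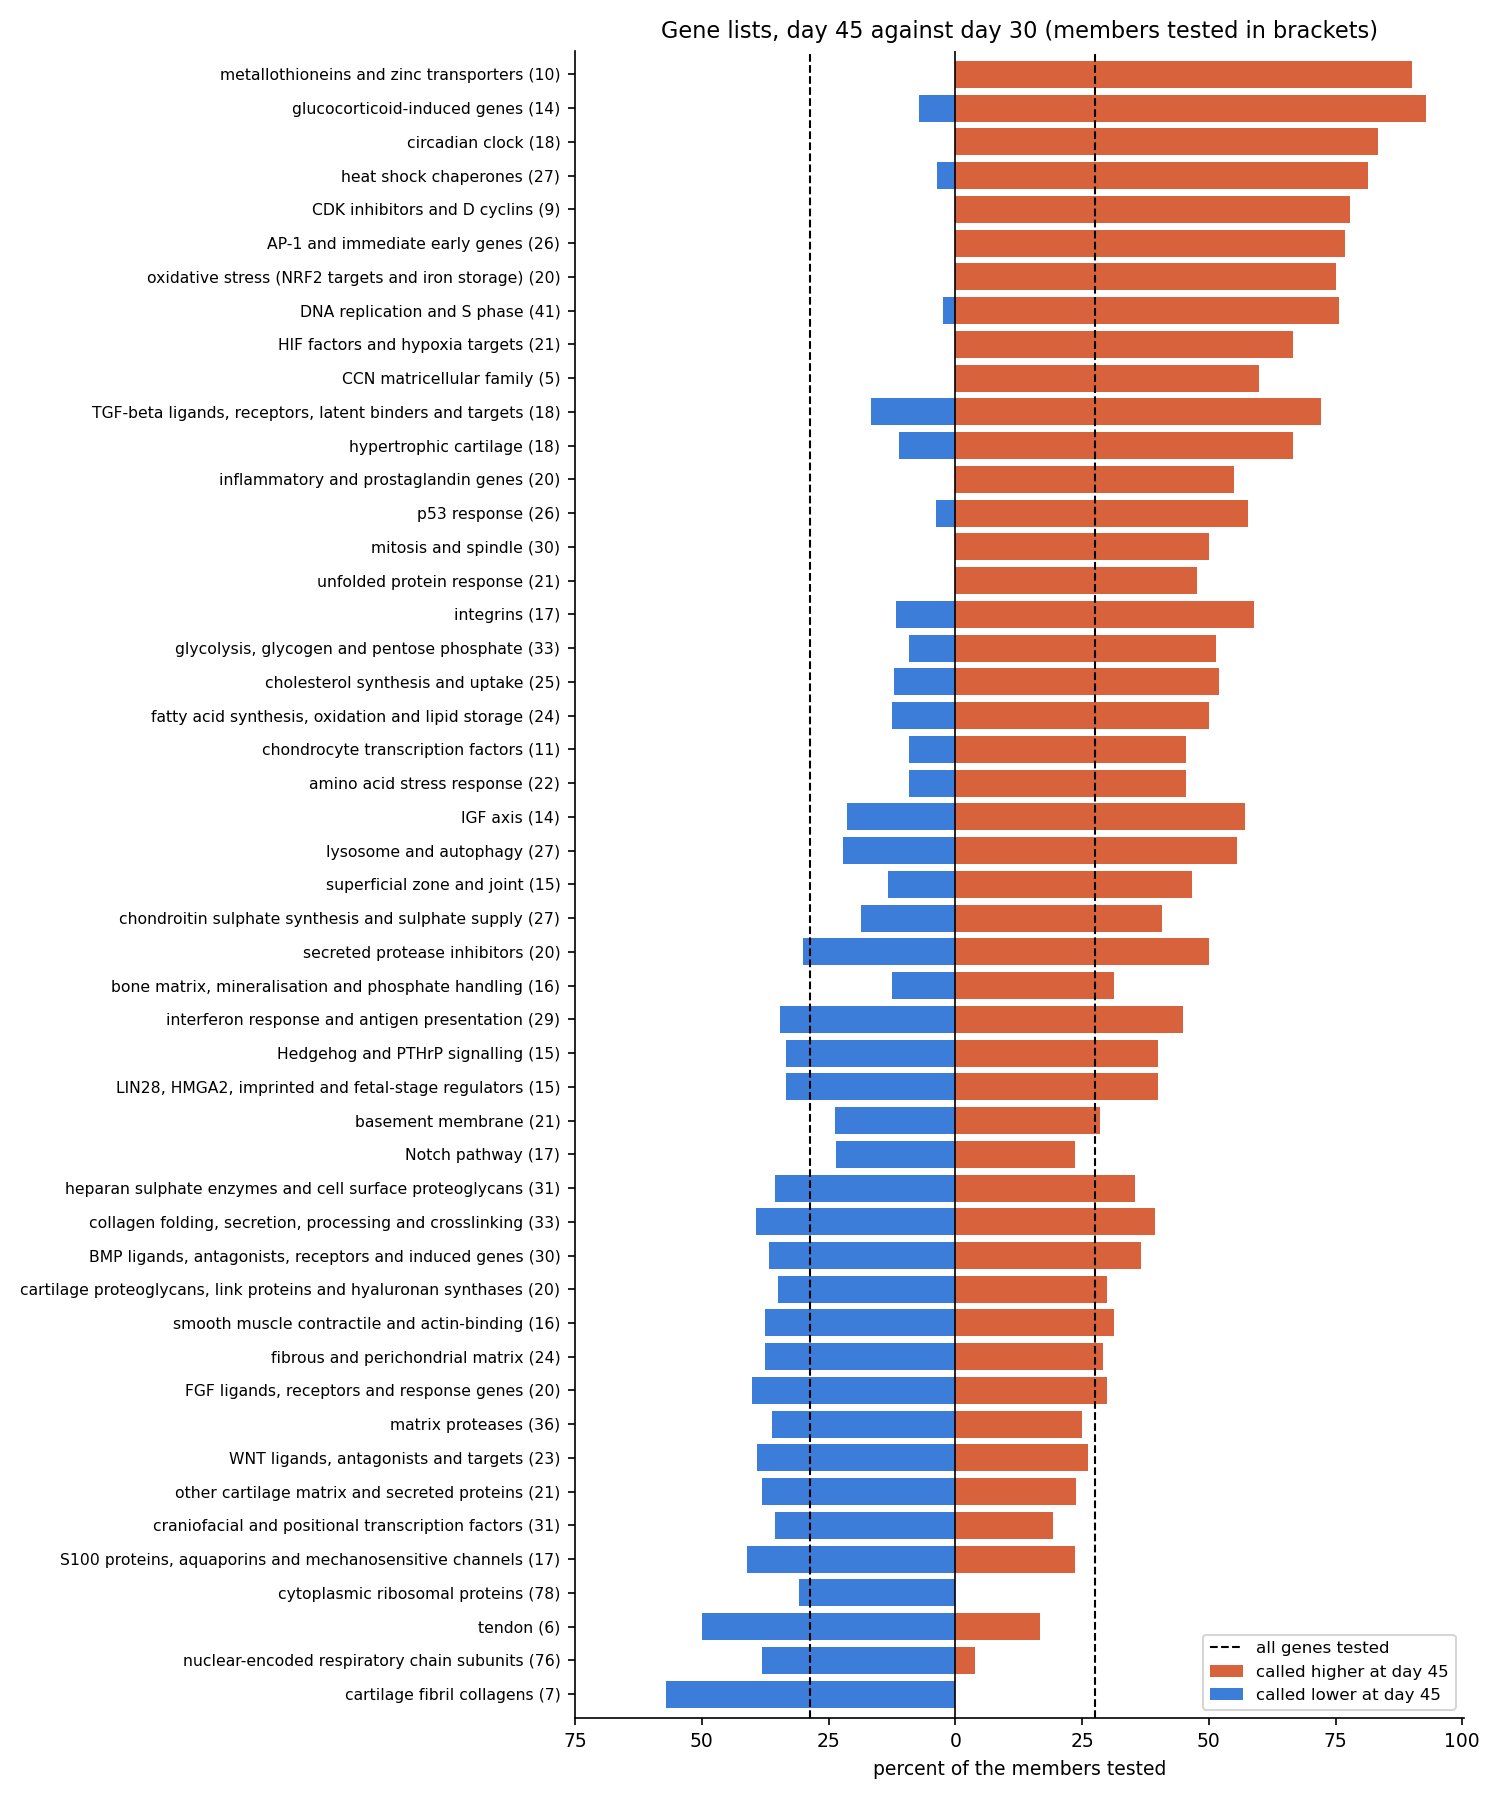
Percent of the tested members of each gene list (y axis, number tested in brackets) called higher (orange, to the right) or lower (blue, to the left) at day 45 in the fit with all libraries. Dashed lines mark the shares of all genes tested, 27.6% and 28.7%; ribosomal proteins and respiratory chain subunits change direction when day 30 replicates 3 to 5 are left out.

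No fibril collagen gene of cartilage was called higher at day 45. Of 7 fibril collagen genes 0 were called higher and 4 lower at day 45 (median log2 fold change -0.59; 6 lower with day 30 replicates 1 and 2 only). COL2A1, which encodes the main fibril collagen, was at 158300, 141500, 143400, 99220 and 66540 CPM at day 30 and 235100, 136100, 163600, 137600 and 163000 CPM at day 45. It was the most abundant gene of both days, its libraries overlapped, and its difference did not pass the test (log2 fold change 0.46 ± 0.22, SE; adjusted p = 0.0889). COL2A1 took 11.8% ± 3.07 (SD, n = 5) of the counts at day 30 and 13.8% ± 2.35 at day 45 (exact permutation test over samples, two-sided, p = 0.302, where 0.0079 is the smallest p the design allows). COL9A2, a chain of the type IX collagen that coats those fibrils, was at 7724, 6229, 7611, 5993 and 4999 CPM at day 30 and 2591, 1733, 1843, 1719 and 2013 CPM at day 45. Every day 45 library lay below every day 30 library (-1.72 ± 0.15; adjusted p = 1.36e-07). COL9A1, another chain, fell from a mean of 9054 to 5776 CPM (-0.65 ± 0.2; adjusted p = 0.00972). The fibrillar collagen COL27A1 fell from 883 to 462 CPM (-0.93 ± 0.11).

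Aggrecan rose, and other proteoglycan genes went both ways. ACAN was at 25940, 23040, 17930, 11720 and 8436 CPM at day 30 and 42040, 34310, 40640, 32280 and 37460 CPM at day 45, with every day 45 library above every day 30 library (1.1 ± 0.25; adjusted p = 0.00131). Its size depended on the day 30 libraries used: with replicates 1 and 2 only, the log2 fold change was 0.6 (adjusted p = 0.0188). Of 20 proteoglycan, link protein and hyaluronan synthase genes, 6 were called higher and 7 lower (median -0.39; 6 and 9 with day 30 replicates 1 and 2 only). EPYC, the small leucine-rich proteoglycan epiphycan, was at 1990, 2016, 1799, 1854 and 1487 CPM at day 30 and 353, 392, 584, 529 and 361 CPM at day 45, without overlap (-2.04 ± 0.15; adjusted p = 2.84e-08). HAPLN3, a hyaluronan link protein, fell from 37.7 to 17.2 CPM (-1.13) and CHADL, a collagen-binding leucine-rich repeat protein, from 229 to 100.5 CPM (-1.19). Among small proteoglycans that rose were PRELP (715 to 1510 CPM, 1.08) and osteomodulin, OMD (23.6 to 81.9 CPM, 1.8).

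Fibronectin and COMP rose. FN1, which encodes the adhesion protein fibronectin, was at 26830, 22240, 21580, 11650 and 17340 CPM at day 30 and 102100, 68740, 80840, 73390 and 82860 CPM at day 45. The groups were well apart (2.03 ± 0.2; adjusted p = 3.98e-07), and FN1 went from 1.95% ± 0.476 to 6.78% ± 0.617 of all counts (SD, n = 5; exact permutation p = 0.0079, two-sided, the smallest the design allows). COMP, cartilage oligomeric matrix protein, which binds collagen fibrils, was at 564, 398, 639, 265 and 352 CPM at day 30 and 3759, 1854, 2557, 1793 and 2248 CPM at day 45 (2.46 ± 0.24; adjusted p = 5.79e-07). The lowest day 45 library exceeded the highest day 30 library in both genes. Per length, on the authors' TPM scale, mean levels at day 45 were 55100 ± 11280 for COL2A1, 20120 ± 2173 for FN1, 7295 ± 409.6 for ACAN and 1632 ± 464 for COMP (SD, n = 5), against 42190 ± 15220, 7845 ± 1206, 4778 ± 1554 and 305 ± 108 at day 30. The 10 most abundant genes held 24.4% ± 4.30 of the counts at day 30 and 30.2% ± 3.04 at day 45 (SD, n = 5; exact permutation p = 0.0317, two-sided). That difference of 5.73 percentage points was 4.47 without day 45 replicate 1 (p = 0.103) and 1.93 with day 30 replicates 1 and 2 only (p = 0.476), both by the same exact permutation test. By that exact test it also missed 0.05 without day 30 replicate 4 or 5 (p = 0.0556 each) and without day 45 replicate 3 or 5 (p = 0.0714 each).

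Several secreted cartilage proteins fell, and UCMA and MATN1 were among the 12 leading decreases defined further on. UCMA, a matrix-associated protein of growth plate cartilage, was at 129, 110.4, 188, 159 and 179 CPM at day 30 and 2.51, 1.54, 3.75, 4.32 and 4.99 CPM at day 45, a log2 fold change of -5.49 ± 0.31 (adjusted p = 6.34e-09). MATN1, the cartilage matrix protein matrilin 1, was at 956, 1058, 1152, 929 and 689.7 CPM at day 30 and 98, 100.3, 73.1, 134 and 112 CPM at day 45 (-3.21 ± 0.27). CNMD, which encodes the angiogenesis inhibitor chondromodulin, was at 1088, 956, 1260, 1110 and 928 CPM at day 30 and 201, 304, 341, 299 and 239 CPM at day 45 (-1.95 ± 0.16). Without day 45 replicate 1 the log2 fold changes were -5.39, -3.19 and -1.85. MIA, a secreted cartilage protein, fell from 279 to 82.5 CPM (-1.76). Over the whole list of 21 other matrix and secreted proteins of cartilage, 5 were called higher and 8 lower (median -0.18; 4 and 8 in the reduced fit).

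**Figure D3:**
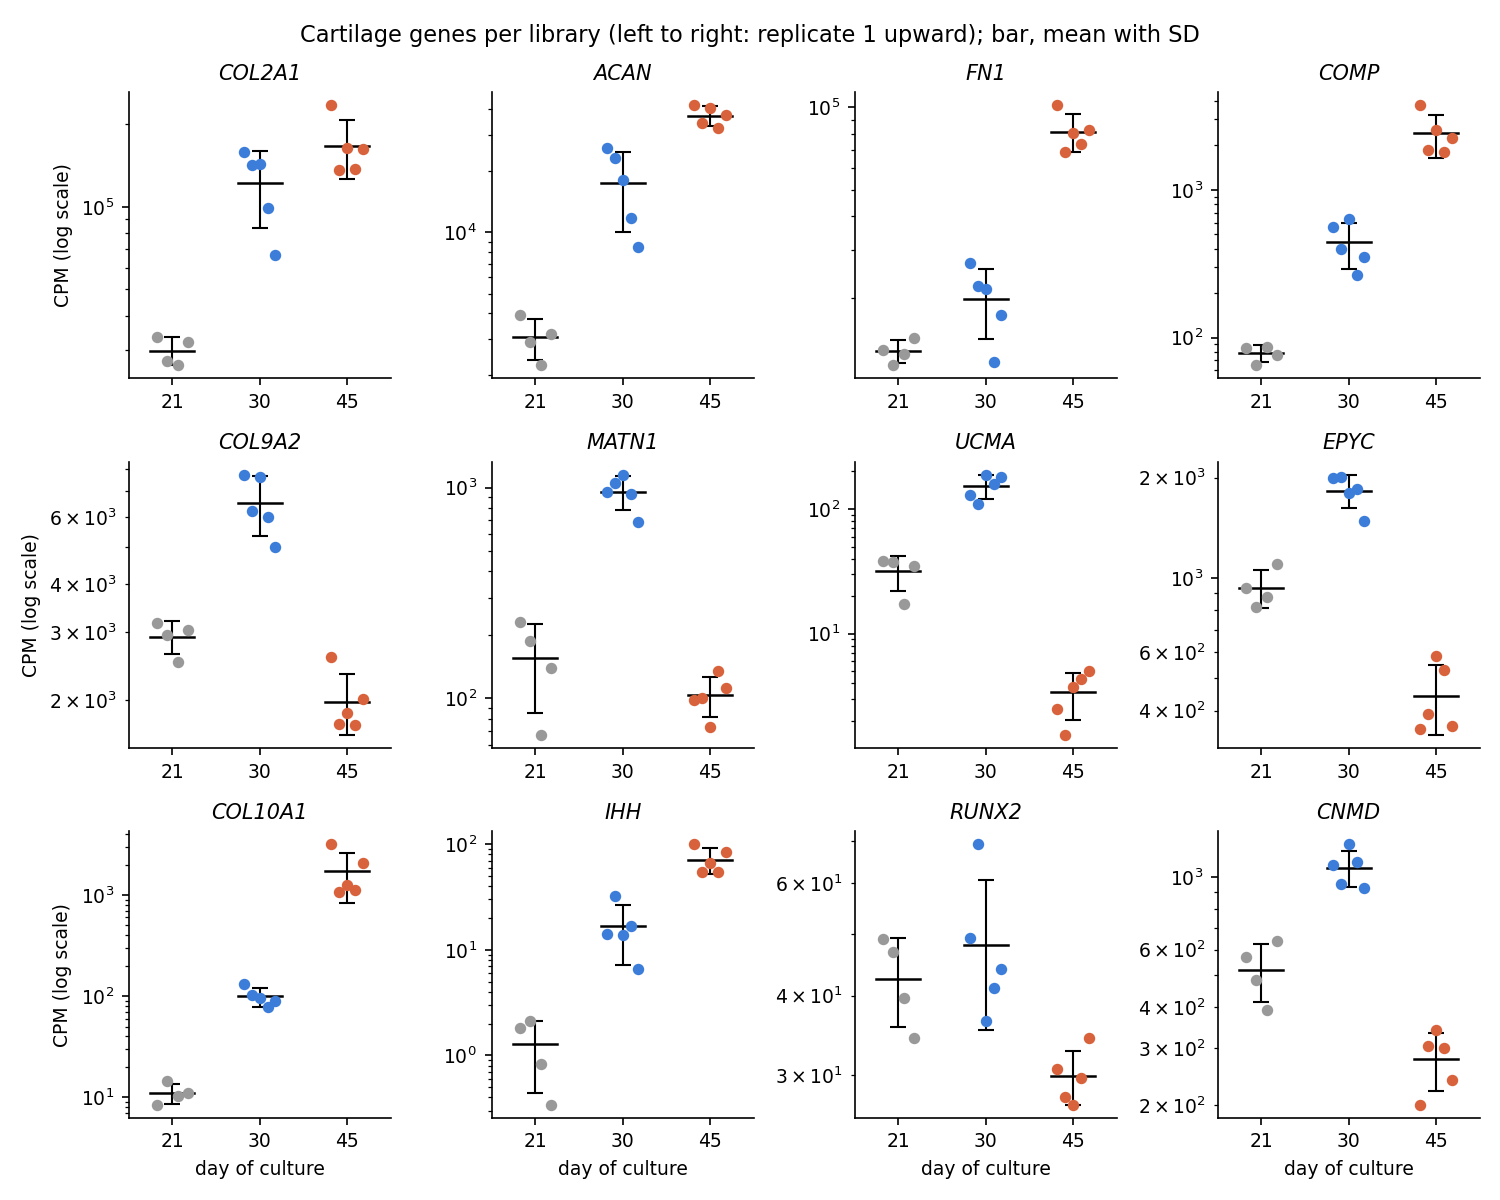
CPM (y axis, log scale) of 12 cartilage genes in each library by day of culture (x axis); points are libraries in replicate order from left to right, and bars give the mean with SD (n = 4, 5 and 5). FN1, COMP, COL10A1 and IHH lie higher at day 45 in every library, COL9A2, MATN1, UCMA, EPYC and CNMD lie lower, and COL2A1 overlaps between days 30 and 45.

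Of the transcription factors that set chondrocyte identity, 5 of 11 were called higher and 1 lower, but with day 30 replicates 1 and 2 only the counts were 1 and 0. SOX9, the master factor, was at 734, 727, 599.8, 525 and 428 CPM at day 30 and 609, 687, 693, 670.2 and 649 CPM at day 45; the groups overlapped and the difference did not pass (0.13 ± 0.13; adjusted p = 0.404). ARID5B, a SOX9 partner, was the member called higher in both fits (18.1 to 41.7 CPM, 1.21 with all libraries and 0.74 with replicates 1 and 2 only).

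Genes of hypertrophic cartilage were called higher more often than lower. Of 18 hypertrophy genes tested, 12 were called higher and 2 lower (median 0.64; 7 and 2 with day 30 replicates 1 and 2 only, 11 and 3 without day 45 replicate 1). COL10A1, the type X collagen of hypertrophic chondrocytes, was at 133, 103, 94.9, 77.6 and 88.7 CPM at day 30 and 3159, 1079, 1249, 1122 and 2060 CPM at day 45. Day 45 replicates 1 and 5 were the highest, and even the lowest day 45 library was far above day 30 (4.12 ± 0.3; adjusted p = 3.23e-08; 3.79 without day 45 replicate 1). IHH, the growth plate signal Indian hedgehog, was at 14, 32.4, 13.8, 16.9 and 6.61 CPM at day 30 and 99.4, 54.2, 66.3, 54.5 and 83.6 CPM at day 45 (2.11 ± 0.39; adjusted p = 0.000455). PTH1R, the receptor of the parathyroid hormone-related protein that restrains hypertrophy, was at 229, 309, 279, 259.9 and 228 CPM at day 30 and 833, 437, 556, 418 and 604 CPM at day 45 (1.13 ± 0.22; adjusted p = 0.000425). It missed the threshold with day 30 replicates 1 and 2 only (adjusted p = 0.0525).

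FOXA2, a factor of hypertrophic differentiation, rose from 7.42 ± 1.33 to 18.8 ± 3.27 CPM (SD, n = 5; 1.35 ± 0.15) and TGM2, a matrix crosslinking enzyme, from 152 ± 27.8 to 569 ± 74.8 CPM (1.91 ± 0.13). RUNX2, the factor of chondrocyte and osteoblast maturation, moved the other way, at 49.2, 69.1, 36.4, 41.1 and 44 CPM at day 30 and 30.7, 27.7, 27, 29.7 and 34.3 CPM at day 45. Its day 45 libraries lay below those of day 30 (-0.68 ± 0.15; adjusted p = 0.000938). MMP13, the collagenase of late hypertrophy, was at 56.6, 32.6, 52.6, 43 and 40.8 CPM at day 30 and 90.3, 68.5, 53.6, 63.4 and 51.7 CPM at day 45. The groups overlapped and the call was marginal (0.54 ± 0.22; adjusted p = 0.0485, and 0.287 with day 30 replicates 1 and 2 only). SPP1 (osteopontin) was at 43.9, 16.3, 30.4, 30.7 and 47 CPM at day 30 and 35.1, 15.2, 14.7, 15.8 and 9.6 CPM at day 45 and was not called (-0.9 ± 0.45; adjusted p = 0.109). Without day 45 replicate 1, the highest of its day, it passed (-1.28; adjusted p = 0.0235). The bone matrix gene IBSP had 0 counts in each day 30 library and a mean of 0.325 CPM at day 45, too low to be tested; a count of 0 allows up to 3 counts, which is 0.115 to 0.169 CPM in the day 30 libraries.

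The bone matrix, mineralisation and phosphate list had 5 members called higher and 2 lower of 16 (median -0.02; 4 and 3 in the reduced fit). ALPL, the alkaline phosphatase needed for mineral deposition, was at 0.383, 1.52, 0.232, 1.34 and 0 CPM at day 30 and 11, 3.15, 3.67, 2.51 and 9.6 CPM at day 45. It rose (3.19 ± 0.65; adjusted p = 0.000727) but stayed at a low level, and day 45 replicate 1 was the highest library (2.84 without it). ANKH, a pyrophosphate exporter, rose from 154 to 254 CPM (0.72), and DMP1, a matrix protein best known from osteocytes, fell from 83.7 to 24.3 CPM (-1.79). VEGFA, the vessel growth factor, which is counted with the hypertrophy genes, was at 286, 417, 332, 289 and 466 CPM at day 30 and 504, 538, 339, 477 and 608 CPM at day 45; its libraries overlapped and it was not called (adjusted p = 0.239).

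The list of superficial zone and joint genes had 7 members higher and 2 lower of 15 (median 0.1; 6 and 2 in the reduced fit). PRG4, the joint lubricant lubricin, was at 882, 631, 711, 496 and 496 CPM at day 30 and 459.8, 286, 512, 484 and 288 CPM at day 45, with overlapping groups and a lower day 45 level (-0.66 ± 0.2; adjusted p = 0.0104). CD44, the hyaluronan receptor, rose from 30.4 ± 2.89 to 143 ± 22.3 CPM (SD, n = 5; 2.23 ± 0.16; adjusted p = 2.34e-08). ERG, a transcription factor of joint cartilage, fell from 241 to 150.4 CPM (-0.68).

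Beyond these lists, the 12 largest increases were taken among genes called in the same direction in 3 fits (all libraries, day 30 replicates 1 and 2 only, and without day 45 replicate 1), without overlap and averaging 10 CPM or more in the higher day. Genes with a clone name, a LINC or LOC number or no symbol were left out in both directions, so larger changes may not be listed. The 12 increases included a chitinase-like protein and metalloproteinases. CHI3L2, a secreted protein described in cartilage cultures, was at 1.03, 0.393, 0.602, 0.992 and 0.923 CPM at day 30 and 76.7, 29.9, 49.6, 39.8 and 34.2 CPM at day 45 (5.83 ± 0.29; adjusted p = 8.46e-10). MMP3, stromelysin 1, was at 0.306, 0.337, 0.139, 0.545 and 0.423 CPM at day 30 and 14, 7.58, 10.8, 10.9 and 8.86 CPM at day 45 (4.88 ± 0.35), and MMP7, matrilysin, was at 1.03, 1.18, 2.04, 2.03 and 1.27 CPM at day 30 and 45.5, 23.8, 28.7, 24.3 and 33.3 CPM at day 45 (4.37 ± 0.28). The absence of overlap in these genes was required by the selection. Other leading increases were ABLIM3 (actin-binding, 0.933 to 15.4 CPM, log2 4.04), ANPEP (aminopeptidase N, 1.05 to 17.4 CPM, log2 4.01) and FIBCD1 (a chitin-binding receptor, 0.837 to 13 CPM, log2 3.97). NPR3 (the natriuretic peptide clearance receptor, 4.06 to 46.9 CPM, log2 3.53), DCLK1 (a microtubule-associated kinase, 3.54 to 36.9 CPM, log2 3.39) and ABI3BP (an extracellular matrix protein, 11.9 to 121 CPM, log2 3.35) were also among them. HSPA6 and COL10A1, also among the 12, are described with the heat shock and hypertrophy genes.

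Among the 12 leading decreases, FBN3, the fibrillin of fetal tissue, was at 132, 136, 119, 76.4 and 109 CPM at day 30 and 8.56, 7.24, 7.38, 6.71 and 10.3 CPM at day 45 (-3.83 ± 0.17; adjusted p = 2.85e-10). MMP9, gelatinase B, was at 26.2, 16, 39.9, 22.7 and 19 CPM at day 30 and 0.314, 1.99, 0.331, 0.0823 and 0.247 CPM at day 45 (-5.34 ± 0.48). COL22A1, a collagen of tissue junctions, went from 27.4 to 3.1 CPM (-3.14) and AQP6, an aquaporin, from 10.5 to 0.674 CPM (-3.95). ADCY4, an adenylate cyclase, went from 18.7 to 2.29 CPM (-3.03). The long non-coding RNA MIAT (-2.85), the pseudogenes MTMR9LP (-3.38) and SSPOP (-2.71), and CLEC18C (-3.26), one of several near-identical lectin genes whose reads may be split, were also among them, as were UCMA and MATN1.

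Matrix proteases split by gene: 9 of 36 were called higher and 13 lower (median -0.2; 10 and 11 in the reduced fit). Their inhibitors had 10 higher and 6 lower of 20 (median 0.42; 10 and 4 in the reduced fit). The pregnancy-associated metalloproteinase PAPPA, which cleaves IGF-binding proteins and is counted with the IGF axis instead, rose from 6.51 ± 1.45 to 38.2 ± 7.02 CPM (SD, n = 5; 2.55 ± 0.17; adjusted p = 8.44e-09). In the protease list MMP2, gelatinase A, was at 1229, 1049, 1373, 1124 and 959 CPM at day 30 and 314, 479, 413, 361 and 335 CPM at day 45 and fell (-1.59 ± 0.13; adjusted p = 9.68e-08), as did MMP11 (7.97 to 1.29 CPM, log2 -2.62) and ADAMTS10 (75.5 to 26.9 CPM, log2 -1.49). TIMP3, a matrix-bound metalloproteinase inhibitor, rose from 353 ± 29.1 to 1054 ± 55.4 CPM (1.58 ± 0.09) and SERPINA1 from 29.8 to 106 CPM (1.83). A2M, the broad-range inhibitor alpha-2-macroglobulin, fell from 513 to 178 CPM (-1.53).

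Enzymes that make and finish the matrix went both ways. Chondroitin sulphate synthesis and sulphate supply had 11 members higher and 5 lower of 27 (median 0.26; 8 and 3 in the reduced fit). CHST3, a chondroitin sulphotransferase, rose from 290.4 ± 71 to 709.6 ± 40.03 CPM (SD, n = 5; 1.29 ± 0.14; adjusted p = 1.56e-06). Heparan sulphate enzymes and cell surface proteoglycans had 11 higher and 11 lower of 31 (median 0.17), against 5 and 10 in the reduced fit (median -0.13) and 7 and 12 with the length offset (median -0.16). The glypican GPC1 rose (414 to 752 CPM, log2 0.86) and GPC3 fell (120.3 to 22.1 CPM, log2 -2.44). Collagen folding and processing had 13 higher and 13 lower of 33 (10 and 10 in the reduced fit). There the prolyl hydroxylases P4HA2 (207 to 436 CPM, log2 1.07) and P3H2 (60.8 to 244 CPM, log2 2.0) rose, and PCOLCE, an enhancer of procollagen cleavage (411 to 134 CPM, log2 -1.62), and the procollagen protease BMP1 (94.9 to 60.4 CPM, log2 -0.65) fell.

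Genes of fibrous and perichondrial matrix were mixed, with 7 higher and 9 lower of 24 (median -0.02; 5 and 11 in the reduced fit, 6 and 14 with the length offset). COL1A1, the main collagen of bone, skin and perichondrium, was at 5960, 6819, 8160, 5203 and 7164 CPM at day 30 and 8729, 6702, 6236, 6577 and 5382 CPM at day 45; the groups overlapped and it was not called (0.01 ± 0.15; adjusted p = 0.946). COL6A3, a chain of the type VI collagen that surrounds chondrocytes, rose from 430.4 to 1421 CPM (1.72). COL14A1 fell from 173 to 43.8 CPM (-1.99). In the tendon list, with 1 higher and 3 lower of 6 (1 and 1 in the reduced fit), the factor SCX fell from 14.2 ± 5.32 to 3.6 ± 0.515 CPM (SD, n = 5; -1.98 ± 0.22). Integrins, the receptors of fibronectin and collagen, had 10 members higher and 2 lower of 17 (7 and 3 with day 30 replicates 1 and 2 only, 5 and 4 with the length offset). ITGA5, the alpha chain of the main fibronectin receptor, was at 310.4, 236, 372, 272 and 262 CPM at day 30 and 962, 695, 841, 806 and 764 CPM at day 45, without overlap (1.48 ± 0.13; adjusted p = 1.1e-07). The basement membrane list had 6 higher and 5 lower of 21 (4 and 8 in the reduced fit, 2 and 10 with the length offset). In it LAMB3, a laminin chain, rose from 8.5 to 58.7 CPM (2.78), and the proteoglycan AGRN fell (166 to 43.9 CPM, log2 -1.92). The smooth muscle and contractile list had 5 higher and 6 lower of 16 (6 and 3 in the reduced fit). The actin crosslinkers ACTN1 (1.21) and FLNA (0.74) rose while the smooth muscle protein TAGLN fell (-1.07). FLNA had the opposite sign, -0.24, when log2 of TPM plus 1 was tested with limma.

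In the TGF-beta list 13 of 18 members were called higher and 3 lower (median 0.59; 10 and 4 with day 30 replicates 1 and 2 only). TGF-beta ligands are held in the matrix by latent binding proteins and act through a pair of receptor kinases. The receptors TGFBR1 (58.9 to 175 CPM, log2 1.57) and TGFBR2 (78 to 176 CPM, log2 1.17) rose. The ligand TGFB3 (24.1 to 11.7 CPM, log2 -1.04) and the latent binders LTBP3 (547 to 174 CPM, log2 -1.65) and LTBP4 (268 to 149 CPM, log2 -0.85) fell. CCN2, the connective tissue growth factor, was at 919.5, 861, 957, 838 and 758 CPM at day 30 and 5467, 2215, 2125, 2597 and 3890 CPM at day 45. Day 45 replicate 1 was the highest, and the fold change without it was 1.64 on the log2 scale against 1.91 ± 0.21 with it. In the CCN family 3 of 5 members rose and 0 fell (3 and 0 in the reduced fit).

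In the Hedgehog and PTHrP list 6 members were higher and 5 lower of 15 (5 and 5 in the reduced fit). PTCH1, the Hedgehog receptor and target, rose from 44.1 to 130.5 CPM (1.57). GLI1, another usual target, fell from 10.1 to 4.03 CPM (-1.32) and GLI2 from 35.4 to 24.8 CPM (-0.52). BMP ligands differed by gene. BMP4 was at 19.4, 19.2, 22.6, 21.4 and 22 CPM at day 30 and 5.3, 6.38, 5.51, 5.02 and 4.66 CPM at day 45 and fell (-1.96 ± 0.1; adjusted p = 8.46e-10). BMP5 fell (62 to 15.2 CPM, log2 -2.02), BMP6 rose (8.86 to 25.1 CPM, log2 1.5), and the antagonist NOG fell (56.4 to 32.8 CPM, log2 -0.78). SMAD7, an induced inhibitor of BMP and TGF-beta signals that is counted in the BMP list, rose (43.6 to 65.4 CPM, log2 0.59). The BMP list as a whole had 11 higher and 11 lower of 30 (9 and 11 in the reduced fit). FGF ligands also went both ways. FGF18, a growth plate ligand, went from 2.26 to 0.188 CPM (-3.57) and FGF9 from 3.21 to 0.685 CPM (-2.21), and FGF1 rose from 10.4 to 54.6 CPM (2.38). The list had 6 higher and 8 lower of 20 (3 and 4 in the reduced fit).

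The WNT list had 6 higher and 9 lower of 23 (5 and 11 in the reduced fit). Among secreted antagonists SFRP2 (153 to 45.9 CPM, log2 -1.73) and WIF1 (30.5 to 13.1 CPM, log2 -1.22) fell and DKK1 (3.5 to 10.6 CPM, log2 1.61) rose. LGR6, a receptor of WNT amplifiers, fell from 8.74 ± 1.84 to 1.14 ± 0.221 CPM (SD, n = 5; -2.93 ± 0.17). Of the Notch pathway, 4 members were higher and 4 lower of 17 (3 and 0 with day 30 replicates 1 and 2 only). The receptor NOTCH2 (238 to 864 CPM, log2 1.86) and the ligand JAG1 (3.21 to 16.4 CPM, log2 2.35) were among the higher ones. In the IGF axis, with 8 higher and 3 lower of 14 (6 and 3 in the reduced fit), the receptor IGF1R rose (68.8 to 162 CPM, log2 1.23). The binding protein IGFBP2 was at 208, 184, 312, 249 and 260.3 CPM at day 30 and 45.3, 68.6, 44, 47.8 and 46.9 CPM at day 45 and fell (-2.27 ± 0.16; adjusted p = 2.12e-08).

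DNA replication genes were called higher at day 45 in most of the list, and of the mitosis genes 15 of 30 were. Of 41 DNA replication genes 31 were called higher and 1 lower (median 0.56; 36 and 1 with day 30 replicates 1 and 2 only, 25 and 1 without day 45 replicate 1). Of the mitosis and spindle genes 0 were called lower, and the others did not pass the test (median 0.39; 18 and 0 in the reduced fit). MKI67, the proliferation marker Ki-67, was at 37.4, 25.1, 39, 24.6 and 38 CPM at day 30 and 76.3, 69.9, 59, 77.3 and 58.4 CPM at day 45 (1.05 ± 0.14; adjusted p = 7.28e-06). It was higher in every day 45 library, but with a length offset its log2 fold change was 0.31 (adjusted p = 0.163). RRM1, a subunit of the nucleotide reductase, rose from 24.5 ± 1.44 to 51.2 ± 6.48 CPM (SD, n = 5; 1.06 ± 0.1, and 1.03 with the length offset). MCM3, a subunit of the replicative helicase, rose from 37.4 ± 5.17 to 60.8 ± 5.36 CPM (0.7 ± 0.1, and 0.65). CDK1, chosen after its values were seen, was at 14.2, 10.9, 13.2, 15.9 and 20.4 CPM at day 30 and 24.4, 19.3, 15.8, 20.4 and 14.8 CPM at day 45; its groups overlapped and it was not called (0.34 ± 0.17; adjusted p = 0.094).

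MKI67, RRM1 and MCM3 had their lowest means at day 30. Day 21 means were 195 CPM for MKI67, 61.5 CPM for RRM1 and 94.2 CPM for MCM3, each above its day 45 mean. Both steps use the day 30 libraries, so they are not independent of each other. MKI67 changed by -2.57 from day 21 to day 30 and by 1.05 from day 30 to day 45 on the log2 scale. RRM1 changed by -1.33 and 1.06, and MCM3 by -1.33 and 0.7. The difference between the later and the earlier change had an adjusted p of 3.46e-08, 8.1e-08 and 2.75e-07 for the 3 genes (edgeR). That test called 9404 of all genes (52.7%). A fall by day 30 can pass it without a later rise, so it does not show that a gene rose. HMGA1, a chromatin protein of growing cells, also had its lowest mean at day 30, with 61.3 ± 2.9, 24.6 ± 4.76 and 59.98 ± 6.09 CPM over the 3 days (SD, n = 4, 5 and 5).

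The CDK inhibitors tested were called higher, and of the D cyclins CCND1 was. CDKN1A, the p21 inhibitor induced by p53, was at 54.9, 55.8, 65.2, 61 and 53.2 CPM at day 30 and 164, 157, 173, 144 and 159 CPM at day 45, with narrow groups far apart (1.46 ± 0.08; adjusted p = 1.54e-09). In the list of CDK inhibitors and D cyclins 7 of 9 were called higher and 0 lower (6 and 0 in the reduced fit), CCND1, cyclin D1, among them (113 ± 15.6 to 338 ± 55.6 CPM, SD, n = 5; 1.59 ± 0.13). CCND2 and CCND3 were not called (0.14 and -0.02; edgeR, adjusted p = 0.323 and 0.864). The p53 response list had 15 higher and 1 lower of 26 (median 0.5; 13 and 0 in the reduced fit). The growth arrest gene GADD45A (16.8 to 42.2 CPM, log2 1.33) and the death receptor TNFRSF10B (53.4 to 121 CPM, log2 1.18) rose.

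**Figure D4:**
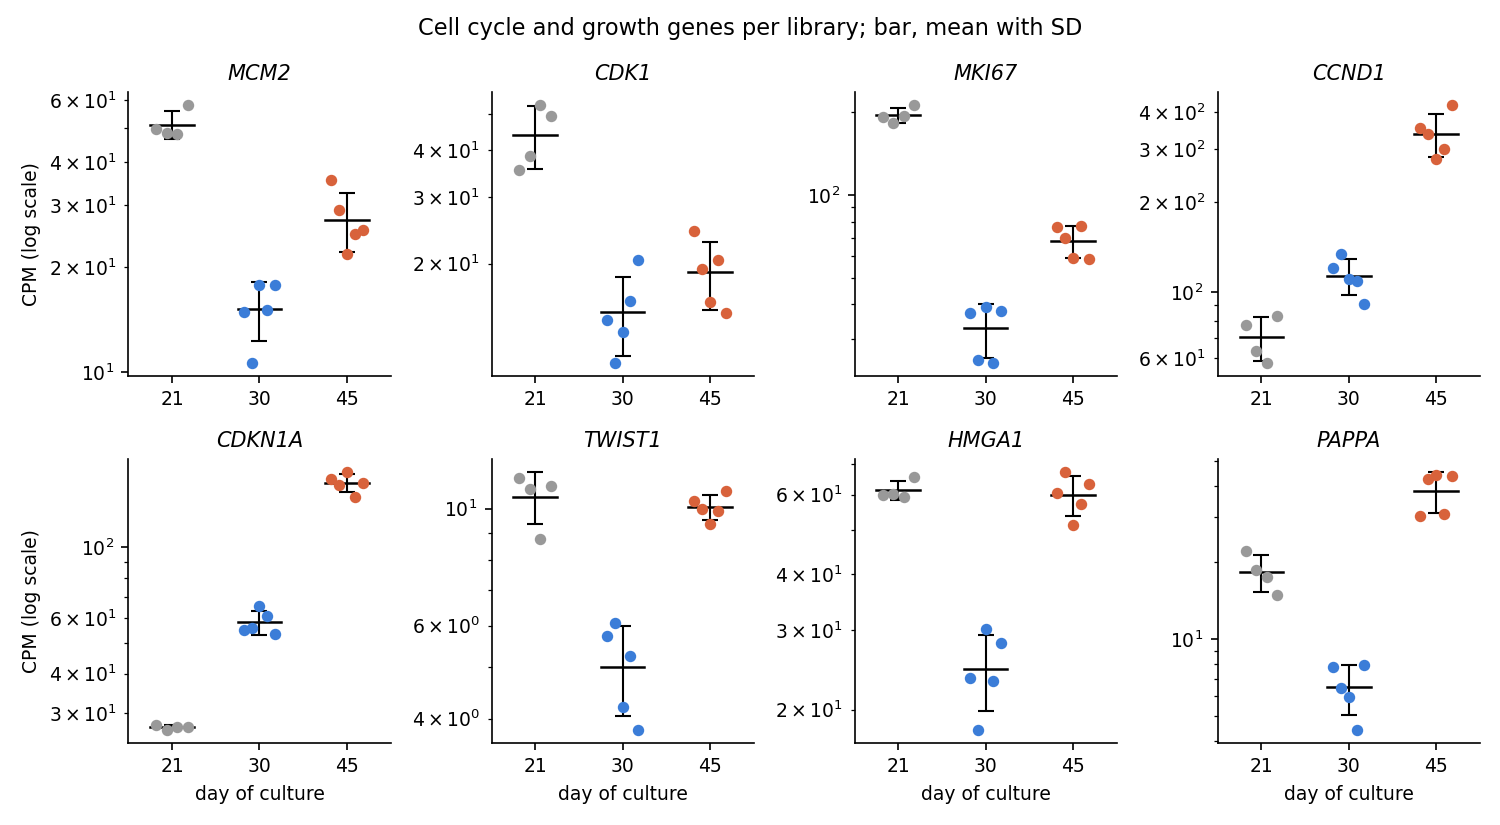
CPM (y axis, log scale) of cell cycle and growth genes in each library by day of culture (x axis); points are libraries in replicate order, bars the mean with SD. MKI67, MCM2, CDK1 and HMGA1 have their lowest means at day 30, CDK1 overlaps between days 30 and 45, and CDKN1A and CCND1 are higher at day 45 in every library; MCM2 and CDK1 were chosen after their values were seen.

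Heat shock chaperones, which hold and refold damaged proteins, were higher at day 45 in most of the list. Of 27 tested, 22 were called higher and 1 lower (median 0.65; 21 and 1 with day 30 replicates 1 and 2 only), and in 18 the libraries of the days did not overlap. CRYAB, the small heat shock protein alpha-B crystallin, was at 49.8, 59.7, 82.8, 74.2 and 107 CPM at day 30 and 662, 576, 784, 656 and 667 CPM at day 45 (3.16 ± 0.21; adjusted p = 9.06e-09). HSPA6, an inducible HSP70 gene that is not in the list and whose reads can be shared with its near copy HSPA7, was at 0.612, 0.506, 0.463, 0.893 and 0.269 CPM at day 30 and 17.2, 23.2, 9.07, 14.6 and 25.4 CPM at day 45 (5.04 ± 0.33). The days did not overlap in CRYAB. HSPB8 (6.59 to 20.7 CPM, log2 1.65) and HSPB7 (10.4 to 31.8 CPM, log2 1.61), small heat shock proteins, rose, and HSPA2 (8.92 to 6.16 CPM, log2 -0.53) was the member that fell. The inducible HSP70 genes HSPA1A and HSPA1B, chosen after their values were seen, went from 72.5 to 164 and from 32.5 to 152 CPM (1.18 and 2.22). The copies are nearly identical, so the split between them is uncertain.

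Heat shock factors bind inverted repeats of GAA in promoters. The repeat was searched as GAANNTTCNNGAA on both strands in the 250 bases before the start of 35116 RefSeq promoters of GRCh38.p14, of which 0.441% held it. Some heat shock members have several promoters, so a count of members is not comparable with that share of promoters. Promoters were found for 26 heat shock members, and 5 of them held the repeat in at least 1. Of these 5, CHORDC1 was not called (log2 fold change 0.25). HSPA1B (2.22), HSPA4L (1.78) and HSPB8 (1.65) were called higher without a match to the exact repeat searched. The last 170 bases before the start are shown for 3 that were called higher, HSP90AA1 (log2 fold change 1.19), HSPA8 (0.70) and HSP90AB1 (0.58), 5′ to 3′ with the repeat in capitals; they were picked because they hold it, and a match is only a description of these letters.
HSP90AA1, chr14:102087045-102087214, minus strand: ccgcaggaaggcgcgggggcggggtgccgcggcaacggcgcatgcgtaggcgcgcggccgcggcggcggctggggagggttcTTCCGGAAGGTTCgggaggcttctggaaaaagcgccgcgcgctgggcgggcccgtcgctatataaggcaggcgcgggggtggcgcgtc
HSPA8, chr11:123062137-123062306, minus strand: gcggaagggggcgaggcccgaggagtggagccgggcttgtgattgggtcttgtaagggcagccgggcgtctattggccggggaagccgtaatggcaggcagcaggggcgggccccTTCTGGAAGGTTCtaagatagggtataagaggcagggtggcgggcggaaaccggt
HSP90AB1, chr6:44247773-44247942, plus strand: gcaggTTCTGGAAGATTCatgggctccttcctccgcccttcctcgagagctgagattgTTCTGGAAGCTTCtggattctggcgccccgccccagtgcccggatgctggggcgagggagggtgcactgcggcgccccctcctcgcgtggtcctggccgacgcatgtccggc

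Metallothioneins, small proteins that bind zinc and copper, were listed with zinc transporters and the zinc sensor MTF1. Of 17 members 10 were tested, and 9 were called higher and 0 lower (median 1.45, and 7 and 0 with day 30 replicates 1 and 2 only). The 9 are not all metallothioneins, as they include MTF1 (log2 0.91) and the transporter SLC30A1 (log2 1.18). MT2A was at 14.9, 11, 21.5, 21.1 and 35 CPM at day 30 and 163, 80.8, 89.8, 104 and 139 CPM at day 45, without overlap (2.47 ± 0.27; adjusted p = 3.47e-06). MT1X rose from 6.84 ± 1.41 to 25.3 ± 5.39 CPM (SD, n = 5; 1.88 ± 0.18), though reads of the MT1 copies may be shared. SLC39A14, a zinc and manganese importer, was at 268, 239.5, 182, 161 and 130.1 CPM at day 30 and 892, 553, 655, 656 and 747 CPM at day 45 (1.84 ± 0.17; adjusted p = 2.82e-07).

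The metal response element, bound by the zinc sensor MTF1, was searched as TGCACNC and TGCGCNC on both strands in the same windows. It is short and was found in 24.8% of the 35116 promoters, and 3 or more matches in 1.58%. Promoters were found for 9 members. At least 1 match was held by 7 of them and 3 or more by 4. A member was counted if any of its promoters matched, so these counts are not comparable with the shares of promoters. Of the 4 members with 3 or more matches, MT1H (8 matches) was not tested and SLC30A2 (3 matches) was not called (log2 fold change -0.26). MTF1 and SLC39A10 held no match and were called higher (0.91 and 0.49). The last 170 bases before the start of the genes with clear increases, MT2A and MT1X, are shown with the matches in capitals.
MT2A, chr16:56608414-56608583, plus strand: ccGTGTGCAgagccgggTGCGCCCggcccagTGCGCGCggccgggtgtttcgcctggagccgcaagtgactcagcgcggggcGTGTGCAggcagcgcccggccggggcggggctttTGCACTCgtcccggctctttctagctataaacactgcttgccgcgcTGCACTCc
MT1X, chr16:56682300-56682469, plus strand: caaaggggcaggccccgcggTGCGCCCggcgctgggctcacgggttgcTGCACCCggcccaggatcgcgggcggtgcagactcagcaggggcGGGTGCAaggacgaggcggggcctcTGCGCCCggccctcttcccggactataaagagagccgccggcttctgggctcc

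In other stress lists more members were called higher than lower. The oxidative stress list, made of NRF2 targets and iron storage genes, had 15 higher and 0 lower of 20 (median 0.61, and 15 and 0 in the reduced fit). GPX3, a secreted glutathione peroxidase, was at 9.8, 9.38, 10.1, 10.4 and 9.11 CPM at day 30 and 36.7, 30.7, 30.7, 28.7 and 30.6 CPM at day 45 (1.69 ± 0.13; adjusted p = 5.42e-08). HIF factors and hypoxia targets had 14 higher and 0 lower of 21 (9 and 0 with day 30 replicates 1 and 2 only). EPAS1, which encodes HIF-2 alpha, was at 27.8, 26.5, 21.9, 19.9 and 20.6 CPM at day 30 and 112, 73.9, 95.9, 91.4 and 88.3 CPM at day 45, without overlap (1.98 ± 0.16). Glycolysis, glycogen and pentose phosphate genes had 17 higher and 3 lower of 33 (14 and 1 in the reduced fit). The glycogen branching enzyme GBE1 rose (23.8 to 61.7 CPM, log2 1.38) and the muscle glycogen phosphorylase PYGM fell (26.1 to 13 CPM, log2 -1.01). The unfolded protein response list had 10 higher and 0 lower of 21 (13 and 0 in the reduced fit), and SEL1L, of the degradation machinery of the endoplasmic reticulum, rose (70.7 to 223 CPM, log2 1.66).

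Genes that the glucocorticoid receptor induces in many cells were higher in 13 of 14 cases and lower in 1 (median 1.5; the same counts with day 30 replicates 1 and 2 only and without day 45 replicate 1). The days did not overlap in any of the 13. KLF9, a receptor-induced transcription factor, was at 8.46, 7.31, 6.53, 6 and 5.27 CPM at day 30 and 30.7, 25.1, 25.7, 29.99 and 30.7 CPM at day 45 (2.08 ± 0.13; adjusted p = 3.73e-09). GLUL, glutamine synthetase, was at 39.2, 32.6, 39.1, 33 and 33.9 CPM at day 30 and 182, 110.3, 125, 122 and 131 CPM at day 45 (1.91 ± 0.13; adjusted p = 8.1e-09). DUSP1, a phosphatase that switches off stress kinases, was at 28, 23.6, 26.9, 22.3 and 20.1 CPM at day 30 and 128, 89.96, 89.98, 90.5 and 116 CPM at day 45 (2.09 ± 0.12; adjusted p = 2.73e-09). The 3 genes were each higher in all 5 day 45 libraries. FKBP5 and TSC22D3, chosen after their values were seen, rose from 283 ± 33.3 to 616 ± 69.8 CPM and from 177 ± 19.1 to 487 ± 145 CPM (SD, n = 5; 1.12 ± 0.1 and 1.46 ± 0.16). CRISPLD2 was the member that fell (100.2 to 57 CPM, log2 -0.81).

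The circadian clock list had 15 higher and 0 lower of 18 (median 0.84; 11 and 0 with day 30 replicates 1 and 2 only). NR1D1, the repressor REV-ERB alpha, was at 4.59, 5.11, 6.76, 4.12 and 3.96 CPM at day 30 and 30.6, 13.6, 20.1, 17.9 and 27.2 CPM at day 45 (2.16 ± 0.22; adjusted p = 8.27e-07). PER2, a period repressor, rose from 5.33 ± 1.38 to 16 ± 2.58 CPM (SD, n = 5; 1.59 ± 0.16), and NFIL3 from 15.4 ± 1.22 to 31.4 ± 2.96 CPM (1.03 ± 0.1). BMAL1 and DBP, chosen after their values were seen, are an activator and an output gene. BMAL1 rose slightly (0.41 ± 0.11; adjusted p = 0.00462, but 0.227 with day 30 replicates 1 and 2 only) and DBP was not called (-0.13 ± 0.21; adjusted p = 0.617).

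AP-1 and immediate early genes, which respond within minutes to growth factors or stress, had 20 higher and 0 lower of 26 (median 0.92; 20 and 0 with day 30 replicates 1 and 2 only). JUN was at 62.4, 54, 66.5, 48.2 and 59.1 CPM at day 30 and 177, 175, 148, 148 and 169 CPM at day 45, without overlap (1.49 ± 0.1; adjusted p = 8.49e-09). KLF6 rose from 33.8 to 79.8 CPM (1.24). Inflammatory and prostaglandin genes had 11 higher and 0 lower of 20 (11 and 0 in the reduced fit). PTGS2, the inducible cyclooxygenase, was at 10.8, 6.86, 6.07, 5.7 and 6.11 CPM at day 30 and 62.6, 35.8, 31.1, 40.03 and 48.8 CPM at day 45 (2.61 ± 0.25; adjusted p = 4.69e-07). The antioxidant enzyme SOD2 rose from 33.7 ± 5.58 to 84.7 ± 10.01 CPM (SD, n = 5; 1.33 ± 0.11), and NOS2, the inducible nitric oxide synthase, from 0.615 to 3.17 CPM (2.37).

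**Figure D5:**
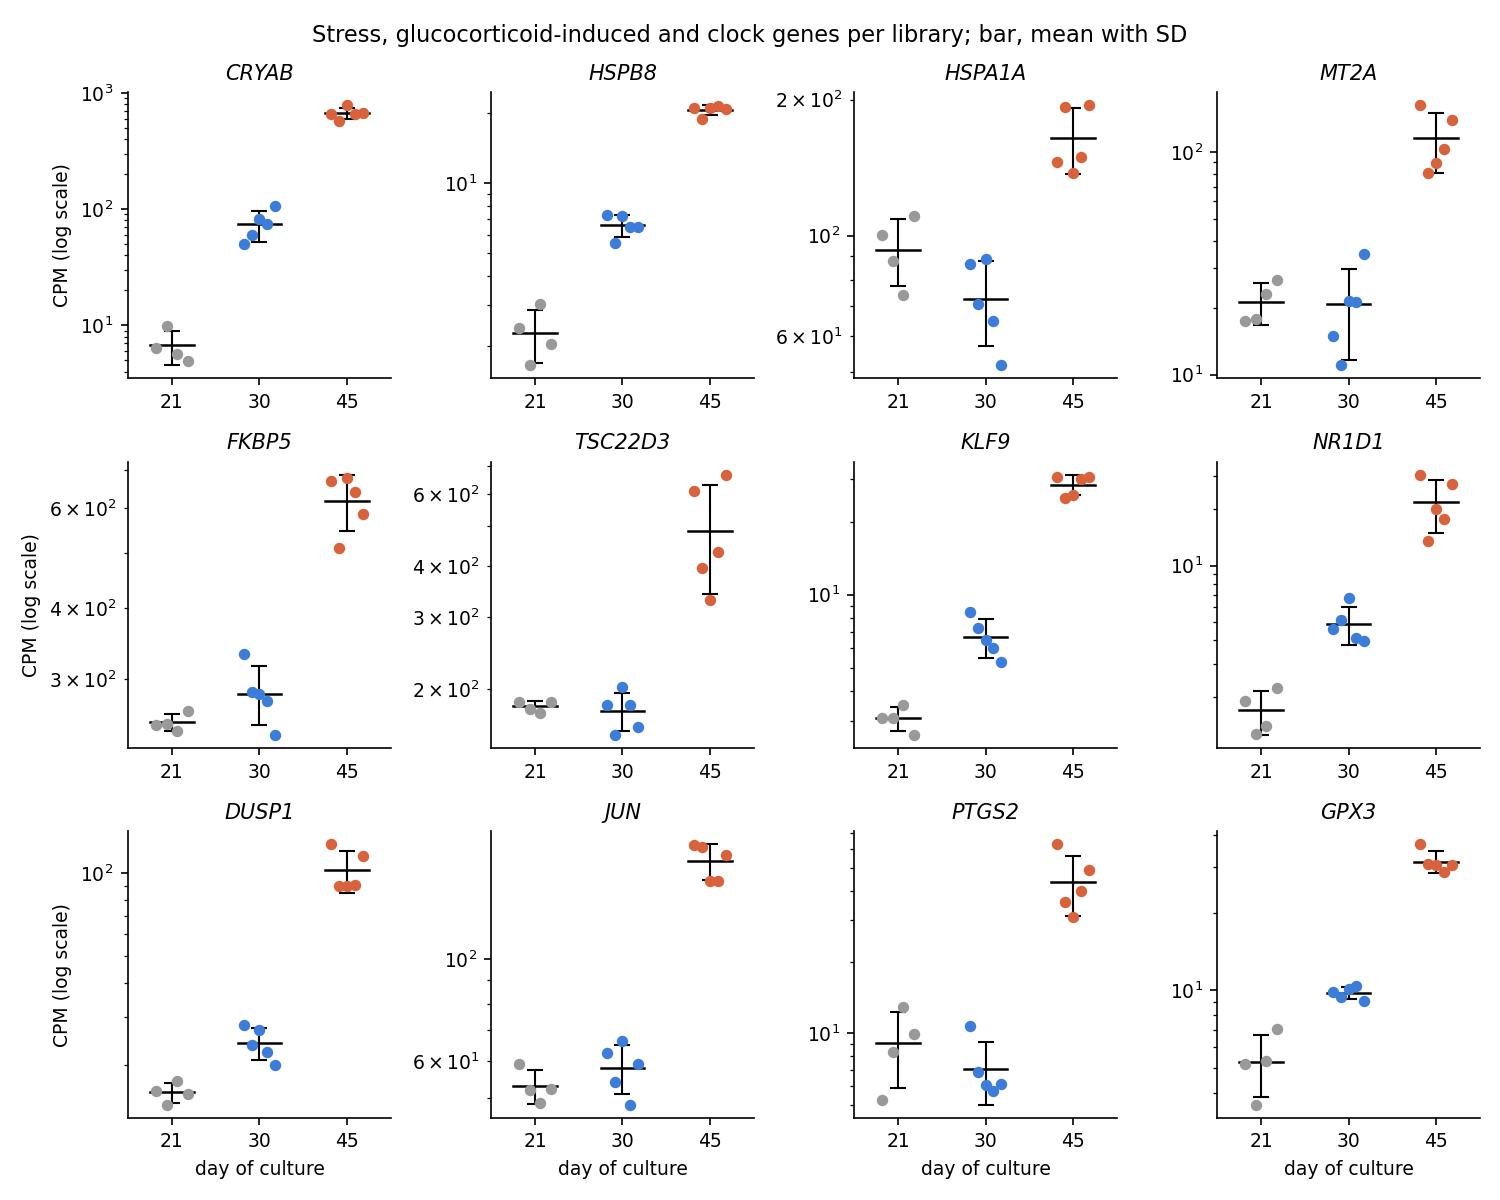
CPM (y axis, log scale) of stress, glucocorticoid-induced, clock and immediate early genes in each library by day of culture (x axis); points are libraries in replicate order, bars the mean with SD. In each panel the 5 day 45 libraries lie above the 5 day 30 libraries; HSPA1A, FKBP5 and TSC22D3 were chosen after their values were seen.

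In antigen presentation and interferon genes, 13 were higher and 10 lower of 29 (10 and 6 in the reduced fit). The class I genes HLA-B (17.9 to 40.5 CPM, log2 1.17) and HLA-C (33.8 to 78.3 CPM, log2 1.21), which share sequence, rose, while the interferon-induced IFI6 (9.45 to 3.52 CPM, log2 -1.42) and IRF9 (18.3 to 10.4 CPM, log2 -0.81) fell. Cholesterol synthesis and uptake had 13 higher and 3 lower of 25 (median 0.32), against 7 and 2 in the reduced fit (median 0.1). Fatty acid genes had 12 higher and 3 lower of 24 (12 and 3 in the reduced fit), and the desaturase SCD rose (636 to 1403 CPM, log2 1.14). In the lysosome list, 15 higher and 6 lower of 27 (12 and 3 in the reduced fit, 15 and 1 with the length offset), the cathepsin CTSD rose from 148 ± 27.8 to 425 ± 66 CPM (SD, n = 5; 1.52 ± 0.15).

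Positional transcription factors had 6 members higher and 11 lower of 31 (median -0.32; 4 and 8 in the reduced fit). Fetal-stage regulators and imprinted genes had 6 higher and 5 lower of 15 (5 and 6 in the reduced fit). The homeobox genes DLX1 (25.1 to 14.5 CPM, log2 -0.79), DLX2 (10.1 to 6.8 CPM, log2 -0.57) and MEOX1 (1.72 to 0.379 CPM, log2 -2.19) fell, and so did the imprinted genes DLK1 (2378 to 1236 CPM, log2 -0.94) and MEST (1445 to 712 CPM, log2 -1.02). Members of both lists also rose, such as the positional factor TWIST1 (5.02 to 10.1 CPM, log2 1.01). The imprinted genes H19 (3783 to 6008 CPM, log2 0.67) and GRB10 (26.6 to 38.45 CPM, log2 0.53), chosen after their values were seen, rose too. The list of S100 proteins, aquaporins and mechanosensitive channels had 4 higher and 7 lower of 17 (median -0.08; 5 and 5 in the reduced fit). Its channels PIEZO1 (174 to 327 CPM, log2 0.91) and TRPV4 (158 to 267 CPM, log2 0.76) rose. S100A1, an S100 protein chosen after its values were seen, fell (961 to 481 CPM, log2 -1.0), as did the aquaporin AQP6, described above.

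Ribosomal protein and respiratory chain genes, which are short, changed direction with the libraries used. Of 78 cytoplasmic ribosomal proteins 0 were called higher and 24 lower with all libraries (median -0.3). The counts were 10 and 1 with day 30 replicates 1 and 2 only (median 0.17) and 27 and 3 with a length offset (median 0.16). For 76 respiratory chain subunits the counts were 3 and 29, 12 and 6, and 32 and 6 in the same order. RPL41, a very short ribosomal protein gene chosen after its values were seen, was at 640.3, 732, 1270, 1610 and 1400 CPM at day 30 and 709, 803, 835, 889.9 and 774 CPM at day 45, so that day 30 replicates 3 to 5 were above the others. No direction is given for either list.

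Most long non-coding RNAs that were called were lower at day 45. Of 2232 tested, 154 were called higher (6.9%) and 1069 lower (47.9%), with a median log2 fold change of -0.70. Of 14380 protein-coding genes 4677 were called higher (32.5%) and 3568 lower (24.8%), with a median of 0.06. With day 30 replicates 1 and 2 only, the long non-coding RNAs had 75 higher and 652 lower and a median of -0.59. Within genes at 10 CPM or more, 14 of 134 long non-coding RNAs were higher and 80 lower (median -0.46, and -0.37 with the length offset), against 3578 and 1832 of 8824 protein-coding genes (median 0.14 and 0.16). Counts were not stranded, so reads of a gene and its antisense partner cannot be told apart.

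Marker lists of other cell types are given by the range of their summed level, and the marker genes named were picked after their values were seen. The fibroblast and perichondrium list was abundant, at 16250 to 22900 CPM at day 30 and 18970 to 26730 CPM at day 45, with 2 higher and 1 lower of 6 (1 and 2 in the reduced fit). The list of 8 pluripotency markers summed to 5.19 to 7.8 CPM at day 30 and 2.16 to 3.45 CPM at day 45. Of 4 tested, 0 were higher and 1 lower (0 and 1 in the reduced fit). Within it POU5F1 averaged 0.321 CPM at day 30 and 0.109 CPM at day 45 and NANOG 0.011 and 0 CPM. The labels give the cell type as embryonic stem cell, while the 8 chondrocyte markers summed to 92200 to 221000 CPM at day 30 and 191500 to 304300 CPM at day 45. The largest part of that sum was COL2A1 (means of 121794 and 167060 CPM), which was not called. Of the 8 chondrocyte markers 2 were called higher and 2 lower (2 and 4 in the reduced fit). The Schwann cell and glia list, 1 higher and 4 lower of 8 (1 and 3 in the reduced fit), summed to 222 to 334 CPM at day 30 and 114 to 167 CPM at day 45. At day 30 most of it came from S100B, which chondrocytes also express (206 to 47.1 CPM, log2 -2.13). SOX10 went from 0.384 to 0.085 CPM. The neuron list summed to 133 to 186 CPM and 117 to 136 CPM, with 2 higher and 5 lower of 9. Osteoblast markers summed to 60.9 to 127 CPM and 30.3 to 44.8 CPM, with 1 higher and 2 lower of 4 (0 and 2 in the reduced fit), and BGLAP (osteocalcin) fell from 0.809 to 0.148 CPM. The blood list, 1 higher and 2 lower of 3, summed to 16.6 to 34.9 CPM and 48.1 to 67.9 CPM, and in it CD68, a lysosomal protein of macrophages and other cells, rose from 8.08 to 53.3 CPM, while PTPRC (CD45) was at 0.038 and 0.039 CPM and TYROBP had no count. The endothelial list summed to 11.2 to 22.8 CPM at day 30 and 16.3 to 28.3 CPM at day 45, with 2 higher and 0 lower of 3: TIE1 rose from 6.34 to 10.98 CPM and TEK from 0.163 to 0.908 CPM, while CDH5 and EMCN had no count in either day. The adipocyte list summed to 1.09 to 2.88 CPM at day 30 and 4.05 to 4.82 CPM at day 45, with 3 higher and 0 lower of 4 (2 higher without day 45 replicate 1), and ADIPOQ had no count. The melanocyte list summed to 1.14 to 1.92 CPM at day 30 and 2.46 to 3.81 CPM at day 45, with 2 higher and 0 lower of 3 (1 and 0 in the reduced fit), and TYR had no count. Skeletal muscle markers summed to 33.6 to 49.1 CPM at day 30 and 31.3 to 54.9 CPM at day 45 and epithelial markers to 52 to 65.2 CPM at day 30 and 53 to 85.3 CPM at day 45. The part of such cells in the results above was not tested.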

How the data were processed

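RNA of 14 pellet libraries was extracted with an RNeasy micro kit and sequenced after TruSeq RNA v2 preparation, which does not mark the strand, per the labels' protocols. Per the submitters' processing notes, STAR 2.4.2a, RSEM 1.2.25 and the build GRCh38 were used. No source used here names the annotation release. Per the file headers, each deposited table holds the expected count, TPM and length of 60587 genes, and 42206 identifiers were matched to a symbol. The deposited expected counts were rounded to whole numbers. edgeR 4.0.16 was run on all 14 libraries in 1 model (filterByExpr, TMM, robust quasi-likelihood test), which tested 17838 genes, and p-values were adjusted by Benjamini-Hochberg at 0.05. CPM values were computed from those counts and scaled by TMM. Log2 fold changes are day 45 minus day 30, with SE. Deposited TPM values by the authors entered limma 3.58.1 after log2 of TPM plus 1 or 0.1, as alternatives. The length offset was a smooth curve per library of log2 CPM against gene length (loess span 0.3). Further alternatives were DESeq2 1.42.0, its size factors, other filters, other sets of libraries and each library left out. The edgeR script was tested on simulated data.

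Samples were grouped by title. Shares of counts were compared by an exact permutation test over 252 splits. The members and gene lists were chosen with earlier results of these data known. Genes were named by rule: 18 cartilage genes whatever their values, the 12 leading genes in each direction, and up to 3 members per list and direction with the smallest adjusted p that were called in 3 fits with a mean of at least 1 CPM; marker genes and genes noted as picked with their values in view stand outside it. A few genes it selects are not reported here. Promoter sequences are from RefSeq, GRCh38.p14; for 51 promoters the bases after the start were looked up in GENCODE 29 transcripts of the gene, and 44 matched. Replicate numbers were not taken to pair the libraries, so the main fit has no block. Intervals for a count of 0 cover counting error only.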

Additional observations from a re-analysis of the deposited data

Results flagged for a closer look

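In 322 groups of 5 libraries (the CPM of each named gene within a day, and 4 shares of counts), 18 had 1 library far from the other 4. Chance flags about 1 in 20 groups. Their distance was judged by the gap to the nearest library over the range of the group (Dixon's test).

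Day 45 replicate 1, the library with the conflicting label, stood apart in 5 of them, upward each time. It was at 235100 CPM for COL2A1 (others 136100 to 163600), or 17.8% of its counts (others 12.03% to 13.6%), at 35.1 CPM for SPP1 (others 9.60 to 15.8), at 36.7 CPM for GPX3 (others 28.7 to 30.7) and at 15.5 CPM for DKK1 (others 9.01 to 10.1).

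Day 45 replicate 2 also stood apart in 5. It was high for IGFBP2 (68.6 CPM), MMP11 (2.44 CPM) and MMP9 (1.99 CPM), all genes with lower day 45 means, and low for HSPB8 (18.9 CPM) and PYGM (11.9 CPM). Day 45 replicate 5 was low for AQP6 (0.206 CPM) and high for IGF1R (183.7 CPM), and day 45 replicate 4 was high for MEOX1 (0.658 CPM).

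At day 30, replicate 5 was high for ADAMTS10 (92.1 CPM) and low for NFIL3 (13.2 CPM) and DLX2 (8.80 CPM). Day 30 replicate 2 was high for PER2 (7.70 CPM, others 4.17 to 5.13) and day 30 replicate 1 for PTGS2 (10.8 CPM, others 5.70 to 6.86). In each of these genes the difference between the days kept its sign without the library named, and the calls were the same except for SPP1, which passed only without day 45 replicate 1 (-1.28; edgeR, adjusted p = 0.0235).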

How the results depend on the processing

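The number of genes called (10051) ranged from 9031 to 10235 when each library was left out in turn, the higher ones (4930) from 4521 to 5023, the lower ones (5121) from 4387 to 5212 and those over 2-fold (3582) from 3186 to 3933. With day 45 replicate 1 placed at day 30 the counts were 6466 called, 3036 higher and 2095 over 2-fold. On log2 of TPM plus 1, 1793 were over 2-fold. All other alternatives left these counts within 1.5 times. The later minus the earlier change was called for 9404 genes, and for 5659 with day 30 replicates 1 and 2 only. The share of the 10 most abundant genes rose by 5.73 percentage points, by 4.36 to 6.94 with each library left out, by 1.93 with day 30 replicates 1 and 2 only, and by 4.03 for the 50 most abundant genes (exact permutation p = 0.167).

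Same-numbered libraries of the days correlated at 0.00, -0.08, -0.01, 0.10 and 0.01, so the numbers do not pair them, and only replicate 4 of day 30 was most alike to its own number. A replicate block left 8517 genes called, 4129 higher, 4388 lower and 3024 over 2-fold.

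Of 156 named genes, 5 changed sign under some alternative. SOX9 (0.13) was at -0.15 with day 30 replicates 1 and 2 only and at -0.06 with the length offset. COL1A1 (0.01) was at -0.17 with day 45 replicate 1 at day 30, -0.30 with the offset, -0.02 with only the libraries of days 30 and 45, with the replicate block and with the filter at 1 CPM, and between -0.10 and 0.10 with each library left out. FLNA (0.74) was at -0.24 with either pseudocount on TPM. DBP (-0.13) was at 0.18 with day 30 replicates 1 and 2 only, 0.13 with the offset and -0.27 to 0.00 with each library left out. RPL41 (-0.50) was at 0.21 and 0.12 under the first of these settings. The cause was not tested. Placing day 45 replicate 1 at day 30 took 34 of the 156 genes out of the calls; each other alternative took out at most 4. Depth limits genes near 0.115 CPM, about 3 counts.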
